A study of Mus musculus with 4 samples.

Results

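*Neb* and 6 genes of related actin filament proteins (*Nebl*, *Lasp1*, *Ttn*, *Tmod1*, *Tmod2* and *Tmod3*) were followed in transcriptomes of embryonic SST+ interneurons. These came from control and conditional *Dnmt1* KO embryos. *Neb* was chosen by its own rise in this contrast, which was the largest on the log2(normalized count + 1) scale among genes with a mean of at least 100 normalized counts, and the other 6 were chosen by family and by role. They were 7 of the 56883 genes in the table, and 6 of the 7 passed the filter on low values. The comparison asked whether relatives and partners of *Neb* followed it.

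All libraries came from tdTomato-labelled cells that were FAC-sorted from the basal telencephalon of mouse embryos at E14.5. Control cells were *Sst-Cre/tdTomato*, and *Dnmt1* KO cells were *Sst-Cre/tdTomato/Dnmt1 loxP2*, so that both genotypes carried the Cre driver and the reporter. Cre was expressed from the *Sst* locus, and the deletion is therefore limited to cells that have switched on *Sst*, which are postmitotic. There were 2 libraries per genotype, each from cells pooled over several embryos. The p-values thus measure the spread between pools, and no single embryo was measured.

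Nebulin is a giant protein that runs along the actin filaments of skeletal muscle and binds them through a long row of short repeats. Its relatives nebulette and LASP1 share the actin-binding repeats and a C-terminal SH3 domain, but are shorter, and LASP1 is found in many cell types that are not muscle. Titin spans the sarcomere next to these filaments, while tropomodulins cap the pointed end of actin filaments, in muscle sarcomeres as well as in the membrane skeleton and the processes of neurons.

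The 4 libraries held 6970247 to 8376711 reads assigned to genes. *Dnmt1* itself was at 2238 and 2341 normalized counts (reads divided by 1 size factor per library) in control cells and at 2164 and 2210 in *Dnmt1* KO cells. The log2 fold change of *Dnmt1* was -0.066, with an adjusted p of 0.461 from limma. The gene's count can include transcripts without the floxed exons, so that it checks the labels only weakly. Reads per exon were not examined, and the reason for the small difference was not tested. Of 8 marker genes of the labelled interneurons, 7 were called higher in *Dnmt1* KO cells (all but *Nkx2-1*), with *Sst* at 5580 and 5963 normalized counts in control libraries and at 8303 and 7825 in *Dnmt1* KO libraries. The genotypes were compared with limma on log2(normalized count + 1) over the 14323 genes whose mean was at least 10 normalized counts. A gene was called at a Benjamini-Hochberg adjusted p below 0.05, and 2476 genes, or 17.3%, were called. Of all genes tested, 8.3% were called higher and 8.99% lower in *Dnmt1* KO cells, and in 57.4% the libraries of the genotypes did not overlap. The median log2 fold change over these genes was -0.0033. Without limma's variance trend, 0 genes were called and 3339 had an unadjusted p below 0.05, which applies to each call given here.

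*Neb* (ENSMUSG00000026950.19) lies on the minus strand of chromosome 2, from 52026659 to 52268486 in GRCm39, and its transcript of 23381 bases has 165 exons. It was at 299 and 252 normalized counts in control cells and at 739.8 and 823 in *Dnmt1* KO cells. Both *Dnmt1* KO libraries lay far above both control libraries, with a gap several times wider than the distance between libraries of 1 genotype. The values correspond to 334 and 247 reads in control libraries and to 750 and 753 reads in *Dnmt1* KO libraries, so that none of them rested on a handful of reads. The mean was 276 ± 33.0 (SD, n = 2) normalized counts in control cells and 781 ± 58.7 (SD, n = 2) in *Dnmt1* KO cells, a ratio of 2.84 and a log2 fold change of 1.50. These values chose the gene, and they are given as a description with no test. Among the 8418 tested genes with a mean of at least 100 normalized counts, *Neb* had rank 1, just ahead of *Ptchd4* at a log2 fold change of 1.48 and *Gm48692* at 1.44. By the ratio of means, *Ptchd4* at 2.86 was ahead of *Neb* at 2.84. Among all genes tested, 76 had a larger log2 fold change than *Neb*, each with a mean below 100 normalized counts. With 1 library left out, the log2 fold change of *Neb* ranged from 1.38 to 1.63.

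*Nebl* (ENSMUSG00000053702.17) encodes nebulette, the Z-disc relative of nebulin in heart muscle, and lies on the same chromosome from 17347467 to 17736275 on the minus strand. It was at 58.2 and 69.4 normalized counts in control libraries and at 87.8 and 75.4 in *Dnmt1* KO libraries. Both *Dnmt1* KO values were above both control values, but the gap between genotypes was narrower than the distance between libraries of either genotype. The log2 fold change was 0.35, with a 95% interval from -0.10 to 0.80 and limma's adjusted p of 0.293. With the length and GC trends taken out of each library, it was 0.12. *Nebl* therefore did not pass the test.

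*Lasp1* (ENSMUSG00000038366.16), on the plus strand of chromosome 11 from 97689822 to 97729590, encodes the short family member that binds actin and, through its SH3 domain, proteins of focal adhesions. Its normalized counts were 1240.3 and 1345 in control libraries and 1353 and 1296 in *Dnmt1* KO libraries. The genotypes overlapped. The log2 fold change was 0.036 (95% interval -0.10 to 0.18, limma's adjusted p = 0.763). The remaining family member, *Nrap*, a nebulin-related protein of the heart's intercalated discs and of growing myofibrils, was at 5.37 and 3.06 normalized counts in control libraries and at 2.96 and 1.09 in *Dnmt1* KO libraries. It was not tested at this level.

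*Ttn* (ENSMUSG00000051747.16), the gene of titin, lies on the minus strand of chromosome 2 from 76534136 to 76812891 and has 347 exons in a transcript of 107543 bases. Its normalized counts were 40.3 and 23.5 in control libraries and 25.6 and 21.9 in *Dnmt1* KO libraries. Control replicate 1 stood above the 3 other libraries, and the genotypes overlapped. The log2 fold change was -0.37, with a wide 95% interval from -1.13 to 0.40 and limma's adjusted p of 0.544. Without control replicate 1 it was 0.011, and with the length and GC correction it was -0.64. These values rested on 20 to 45 reads per library spread over the longest coding sequence of the group, so that a moderate change was not detectable at this depth.

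The tropomodulins differed widely from each other in level, and none was called between genotypes. *Tmod1* (ENSMUSG00000028328.14; chromosome 4, plus strand, 46038541 to 46116036), the main tropomodulin of striated muscle and red blood cells, had 1 read in each control library and 2 and 1 reads in the *Dnmt1* KO libraries. It was at or below 1.97 normalized counts throughout, was not tested, and no fold change can be given. *Tmod2* (ENSMUSG00000032186.16; chromosome 9, minus strand, 75472903 to 75518728), the neuronal tropomodulin, was at 2354 and 2203 normalized counts in control libraries and at 2127 and 2376 in *Dnmt1* KO libraries. The genotypes overlapped, with a log2 fold change of -0.019 (95% interval -0.15 to 0.11, limma's adjusted p = 0.880). *Tmod3* (ENSMUSG00000058587.10; minus strand, 75404030 to 75466986), the widely expressed family member, lies 5.9 kb from *Tmod2*. Its normalized counts were 336 and 334 in control libraries and 284 and 330.0 in *Dnmt1* KO libraries. The genotypes did not overlap, but only *Dnmt1* KO replicate 1 stood apart. The log2 fold change of *Tmod3* was -0.13 (95% interval -0.36 to 0.10, limma's adjusted p = 0.477). The other genes of the family, *Tmod4*, *Lmod1*, *Lmod2* and *Lmod3*, were too low to be tested. *Tmod4* was at 5.37 and 0 normalized counts in control libraries and at 1.97 and 1.09 in *Dnmt1* KO libraries, and the leiomodins, which nucleate actin filaments in muscle, did not exceed 2.19 in any library.

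**Figure D1:**
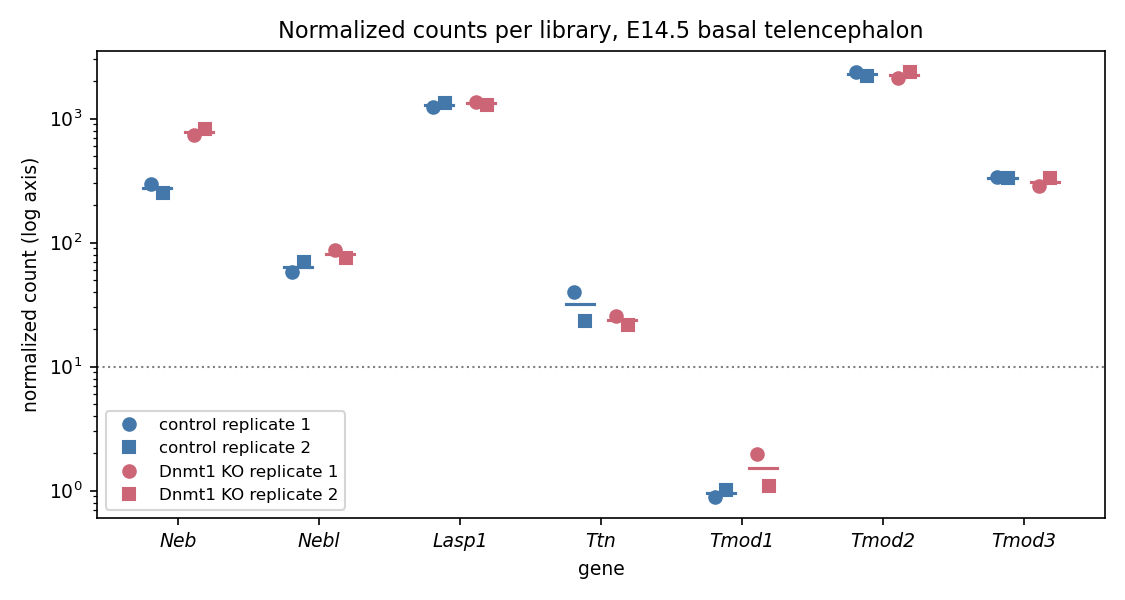
Normalized counts (log axis) of the 7 genes in each of the 4 libraries, with short horizontal lines for the genotype means and a dotted line at the minimum mean of 10 for testing. The *Neb* points of the *Dnmt1* KO libraries (739.8 and 823) sit above those of the control libraries (299 and 252), while the points of *Lasp1*, *Ttn* and *Tmod2* overlap between genotypes.

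Of the 5 tested genes beside *Neb*, 0 were called by limma, beside 17.3% of all genes tested, and 0 had an unadjusted p below 0.05, beside 30.2%. With 5 genes, a count of 0 is close to these shares and is no result about the group. Neither edgeR nor DESeq2 on recovered reads called any of them. In 2 of the 5, *Nebl* and *Tmod3*, the genotypes did not overlap, beside 57.4% of all genes tested. The intervals of *Lasp1* and *Tmod2* were narrow and lay within 0.18 of 0 on the log2 scale, whereas those of *Nebl* and *Ttn* were wide, since both were low.

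**Figure D2:**
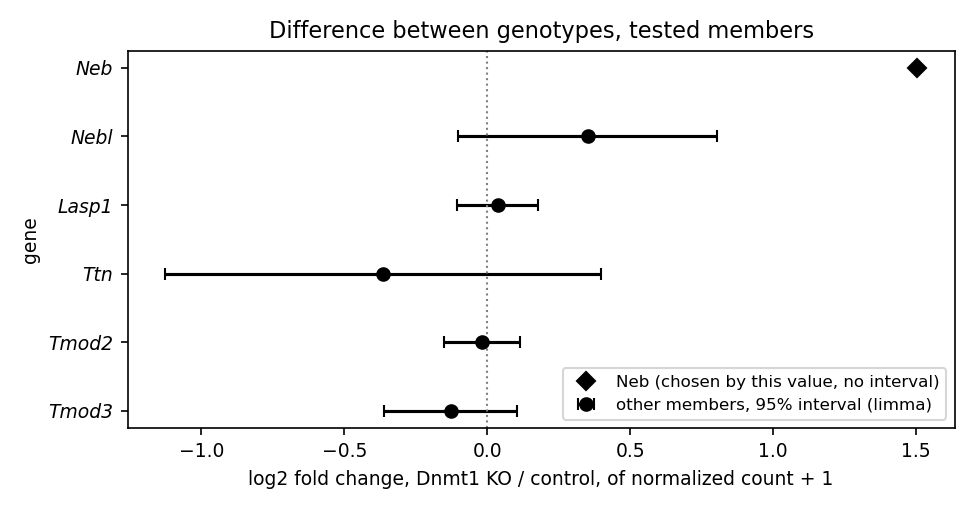
Log2 fold change of *Dnmt1* KO over control for the 6 tested genes, on the scale of normalized count + 1, with 95% intervals from limma for the 5 genes not chosen by this value. *Neb* stands at 1.50, and each of the 5 intervals includes 0 and ends below 0.81.

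Levels were compared between genes per kb of transcript, since long transcripts collect more reads. The transcript with the longest coding sequence was used, and the levels depend on that choice. *Nebl*, for example, has 25 annotated transcripts, and the one used has 9477 bases. In control cells, *Lasp1* was the highest at 359 normalized counts per kb (mean of 2 libraries), followed by *Tmod2* at 218 and *Tmod3* at 71.6. *Neb* came next at 11.8 and was followed by *Nebl* at 6.73. The control level of *Lasp1* per kb was thus 30.5 times and that of *Tmod2* 18.5 times that of *Neb*. *Tmod1* at 0.301 and *Ttn* at 0.296 normalized counts per kb were the lowest, and their control libraries overlapped, so that these neighbours in the order cannot be told apart. In *Dnmt1* KO cells, *Neb* was at 33.4 normalized counts per kb, still below *Tmod3* at 65.7 and above *Nebl* at 8.61. The order of the 5 higher genes was the same in both genotypes. Of the counts per kb summed over *Neb*, *Nebl* and *Lasp1*, *Neb* made up 3.12% in control cells and 8.15% in *Dnmt1* KO cells. *Nrap*, which was too low to be tested, was left out of this sum. *Lasp1* thus remained the main transcript of the family per kb in both genotypes.

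**Figure D3:**
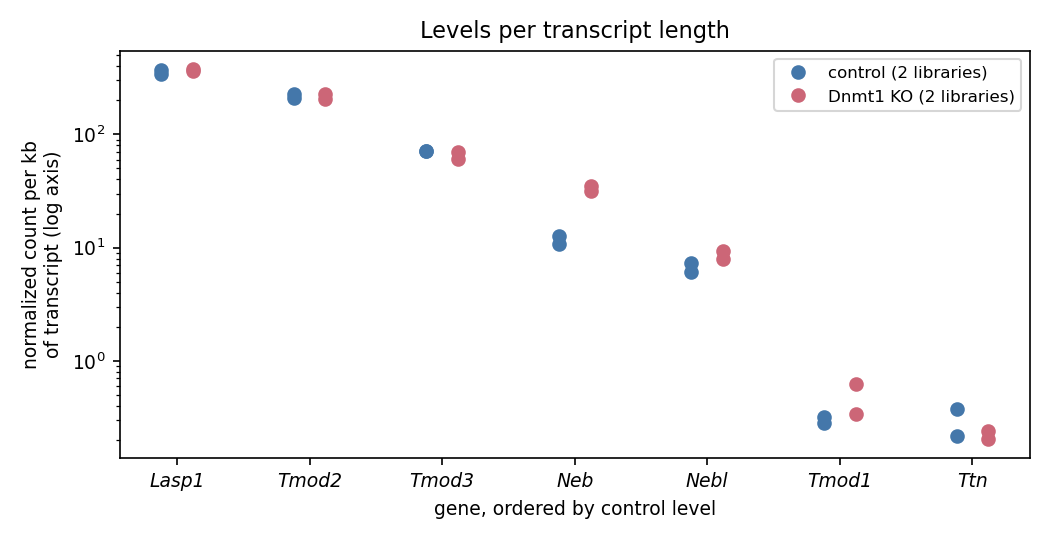
Normalized counts per kb of transcript (log axis) in the 2 control and the 2 *Dnmt1* KO libraries, with the genes ordered by their control level. *Neb* moves from 11.8 to 33.4 on average, but stays in the fourth place of the order, between *Tmod3* and *Nebl*.

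DNMT1 methylates cytosine in CG dinucleotides, and the 250 bases upstream of each annotated start were therefore searched for CG, which reads the same on both strands. Promoters of RefSeq (GRCm38.p6) were matched for 5 of the 7 genes, and *Neb* and *Tmod3* were not matched. The median over 32851 promoters was 6 CG, and 92.1% held at least 1. *Lasp1* had 24 CG, more than 88.0% of promoters, and *Tmod1* had 17. The single *Ttn* promoter had 4, the *Tmod2* promoters had 2 and 5, and the 4 starts of *Nebl* had 0, 0, 3 and 25. No methylation values were analysed here, and the CG counts describe sequence only. The upstream regions of 2 starts are shown, with CG in capitals, because all of their 250 bases lie outside annotated exons and each matches a single place in GRCm39. Of the 3 *Nebl* starts for which this holds, the one shown has the most CG, and the others have 0. They belong to *Nebl*, the tested family member with the largest difference beside *Neb*, at chr2:17674977-17675226 on the minus strand, and to *Ttn*, at chr2:76812892-76813141 on the minus strand.
Nebl: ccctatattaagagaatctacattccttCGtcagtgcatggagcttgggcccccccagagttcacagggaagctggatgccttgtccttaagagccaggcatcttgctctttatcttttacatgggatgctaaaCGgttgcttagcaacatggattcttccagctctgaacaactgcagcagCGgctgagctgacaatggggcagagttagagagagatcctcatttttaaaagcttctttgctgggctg
Ttn: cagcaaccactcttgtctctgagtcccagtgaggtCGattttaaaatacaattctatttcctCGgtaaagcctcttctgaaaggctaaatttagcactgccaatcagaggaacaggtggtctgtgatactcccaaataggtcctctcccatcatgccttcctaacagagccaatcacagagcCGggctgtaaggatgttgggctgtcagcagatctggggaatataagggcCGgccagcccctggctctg

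*Neb* is a muscle gene by its textbook role, and sarcomeric genes were therefore examined as a group. Of 33 genes, 30 were below the mean of 10 normalized counts, with none of these above 7.19, and 6 (*Casq2*, *Myf6*, *Myl3*, *Myl7*, *Myog* and *Tnnt3*) were listed at 0 in every library. *Myod1*, a master regulator of skeletal muscle, was at 0 and 1.02 normalized counts in control libraries and at 2.96 and 1.09 in *Dnmt1* KO libraries. *Acta1*, the actin of skeletal muscle, was at 4.47 and 7.15 in control libraries and at 5.92 and 10.9 in *Dnmt1* KO libraries. The summed level of the 33 genes was 304 and 350.2 normalized counts in control libraries and 304 and 279.7 in *Dnmt1* KO libraries. Much of this sum came from *Myh7*, with a mean of 149.5 normalized counts over the libraries, so that it says little about the other genes. The part of muscle cells in the value of *Neb* was not tested. The 3 tested genes, *Myh7*, *Ryr1* and *Pax7*, had 0 calls, beside 17.3% of all genes tested, and a median log2 fold change of -0.39. *Myh7*, a slow myosin heavy chain, was at 127 and 165 normalized counts in control libraries and at 165 and 141 in *Dnmt1* KO libraries. *Ryr1*, the calcium release channel of muscle, was at 61.7 and 67.4 in control libraries and at 41.4 and 47.0 in *Dnmt1* KO libraries.

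Partners of titin in the Z-disc and M-band, without *Ttn* itself, had 8 tested genes of 28, and 8 were listed at 0 in every library. Of those tested, 1 was called higher and 1 lower, beside 8.3% and 8.99% of all genes tested. Their median log2 fold change was -0.17. *Actn4* was the most abundant, a non-muscle alpha-actinin that bundles actin, with 713 and 726 normalized counts in control libraries and 687 and 713 in *Dnmt1* KO libraries. Its log2 fold change was -0.040 (limma's adjusted p = 0.775). *Actn1*, the other non-muscle alpha-actinin, fell from 340.0 and 333 to 255 and 274 normalized counts at a log2 fold change of -0.34 and an adjusted p of 0.0368 in limma. The gene called higher was *Ankrd23*, a muscle ankyrin repeat protein, at 11.6 and 5.10 normalized counts in control libraries and 27.6 and 25.1 in *Dnmt1* KO libraries, which was named after its values were seen. With the length and GC correction, the adjusted p of *Actn1* was 0.0984. DESeq2 called neither *Actn1* (adjusted p = 0.226) nor *Ankrd23* (adjusted p = 0.154). With 1 library left out, limma's adjusted p reached 0.165 for *Actn1* (without *Dnmt1* KO replicate 1, and above 0.05 also without either control library) and 0.163 for *Ankrd23* (without control replicate 2, and above 0.05 also without either *Dnmt1* KO library).

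Actins and tropomyosins, which build and coat the filaments that the nebulin family binds, were lower where they were called. Over all genes tested, 8.3% were called higher and 8.99% lower. Both tested actins of 6, the cytoplasmic *Actb* and *Actg1*, fell, with log2 fold changes of -0.15 (limma's adjusted p = 0.00787) and -0.16 (limma's adjusted p = 0.00753). *Actb* was at 27886 and 27246 normalized counts in control libraries and at 24408 and 25425 in *Dnmt1* KO libraries. *Actg1* was at 18232 and 17242 in control libraries and at 15758 and 15964 in *Dnmt1* KO libraries. The proteins of both genes are near-identical, and whether reads were split between the genes was not tested. Once the trends over length and GC content had been taken out of each library, the log2 fold changes were -0.026 and -0.072, and limma's adjusted p was 0.642 and 0.177. Without control replicate 1, limma's adjusted p was 0.0616 for *Actb* and 0.0803 for *Actg1*, and without *Dnmt1* KO replicate 1 it was 0.122 for *Actb*.

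Of 4 tropomyosins, 3 fell and 0 rose, beside 8.99% of all genes tested that were called lower and 8.3% called higher. Their median log2 fold change was -0.41. *Tpm4* fell from 917 and 916 normalized counts to 566 and 636, a log2 fold change of -0.61 with limma's adjusted p of 8.74e-05. *Tpm3* fell from 1948 and 2181 to 1729 and 1850, a log2 fold change of -0.20 with limma's adjusted p of 0.0407. *Tpm2*, a tropomyosin of muscle that was named after its values were seen, fell from 41.2 and 51.0 to 20.7 and 13.1, a log2 fold change of -1.42 with limma's adjusted p of 0.0103. *Tpm1*, an alpha-tropomyosin of muscle and many other cells, was not called, at 784 and 698 normalized counts in control libraries and 686 and 727 in *Dnmt1* KO libraries. DESeq2 called *Tpm4* but not *Tpm3* (adjusted p = 0.110) or *Tpm2* (adjusted p = 0.0658). With the length and GC correction, *Tpm3* was at -0.15 (limma's adjusted p = 0.142). Without control replicate 2, *Tpm3* was at -0.12 (limma's adjusted p = 0.301) and *Tpm2* at -1.27 (limma's adjusted p = 0.113), and without *Dnmt1* KO replicate 1 it was 0.199 for *Tpm3*.

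Markers of several other cell types were lower as well. The counts below stand beside 8.3% of all genes tested that were called higher and 8.99% that were called lower. Among genes of smooth muscle and pericytes, 6 of 12 were tested, 4 fell and 0 rose, with a median log2 fold change of -0.96. *Pdgfrb*, a receptor of pericytes, fell from 76.1 and 89.8 normalized counts to 31.6 and 37.1, and *Smtn*, a smooth muscle cytoskeletal protein, fell from 131 and 125 to 44.4 and 66.6. *Rgs5* fell with a log2 fold change of -1.10. *Abcc9* fell at -0.83, with an adjusted p of 0.0499 in limma, 0.0576 in edgeR and 0.270 in DESeq2. The latter was named after its values were seen, and its adjusted p was 0.103 without control replicate 1, 0.275 without control replicate 2 and 0.220 without *Dnmt1* KO replicate 2, while that of *Rgs5* was 0.0665 without control replicate 2 (limma). The sum over the 12 genes was 415 and 450.2 normalized counts in control libraries and 216 and 204 in *Dnmt1* KO libraries, with *Des* listed at 0 and *Acta2* at or below 1.79. All 5 blood genes fell (median log2 fold change -2.47), with a sum of 1177 and 1122 normalized counts in control libraries and 224 and 247 in *Dnmt1* KO libraries. Of 6 radial glia genes, 5 fell and *Sox2* rose, and their sum was 9458 and 9526 in control libraries and 5592 and 5772 in *Dnmt1* KO libraries. The SST interneuron markers had 7 of 8 genes called higher, with a list median of the log2 fold change of 0.51 and the largest value, 0.80, for *Sox6*, beside 1.50 for *Neb*. Fewer cells of a type and less RNA per cell cannot be told apart in bulk samples. The part of these shifts in the values of *Neb*, the actins and the tropomyosins was not tested.

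**Figure D4:**
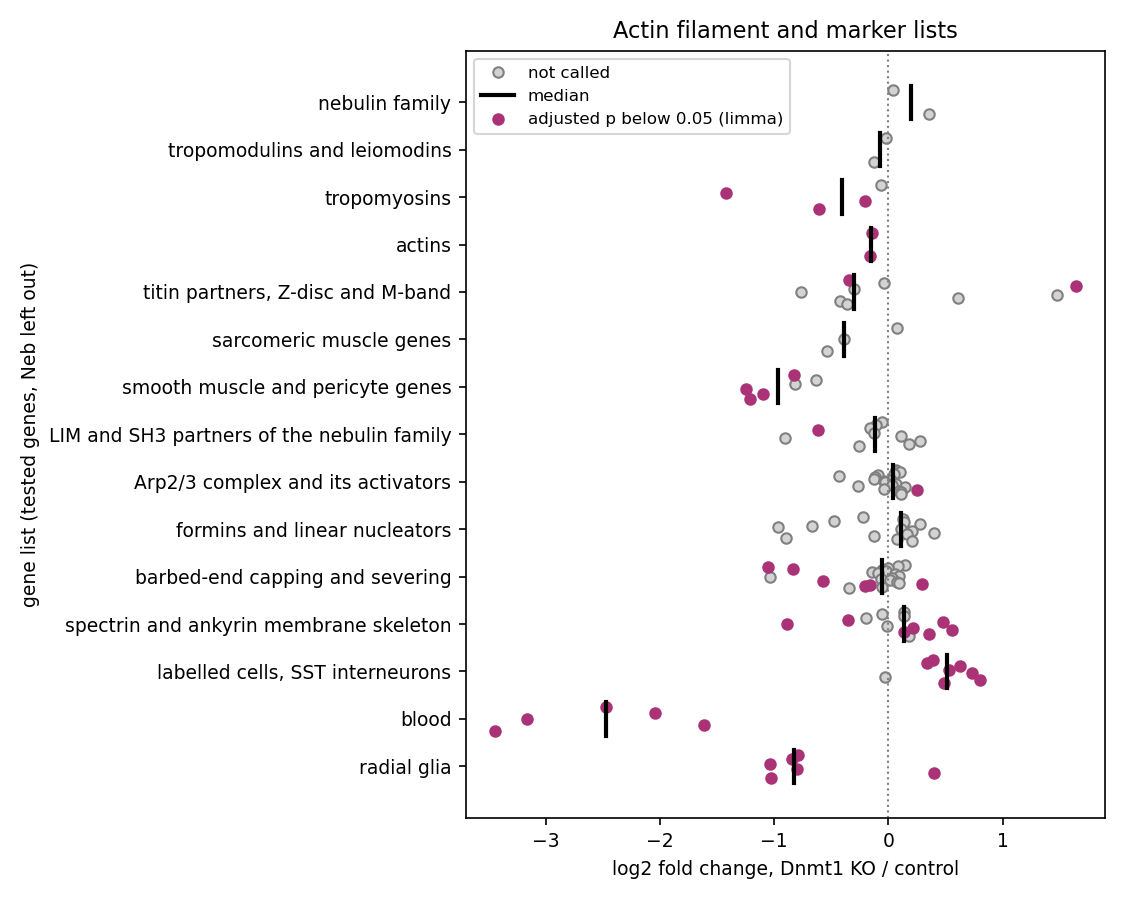
Log2 fold change (*Dnmt1* KO over control) of each tested gene in 15 lists of actin filament and marker genes without *Neb* (*Ttn* is in the titin list), with genes called by limma in purple, others in grey and the list median as a black bar. Tropomyosins, smooth muscle, blood and radial glia genes lie mostly to the left of 0 (medians -0.41, -0.96, -2.47 and -0.82) and SST interneuron markers to the right (median 0.51).

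For the LIM and SH3 partners of the nebulin family, 10 of 16 genes were tested, 0 rose and 1 fell, beside 17.3% of all genes tested that were called. The most abundant were *Evl* and *Enah*, which extend filaments at their growing end, with log2 fold changes of -0.11 (limma's adjusted p = 0.213) and -0.054 (limma's adjusted p = 0.558). The gene called was *Palld*, the scaffold palladin, which fell from 210.3 and 205 normalized counts to 126 and 145, a log2 fold change of -0.61 with limma's adjusted p of 0.00689. Its adjusted p was 0.0532 with limma without control replicate 1 and 0.0564 with DESeq2. In the Arp2/3 complex and its activators, which form branched networks, 1 of 20 genes rose and 0 fell. The shares over all genes tested were 8.3% called higher and 8.99% called lower. The median log2 fold change of this list was 0.04. The gene called was *Wasf1*, a neuronal activator of the complex, at 824 and 828 normalized counts in control libraries and 979 and 981 in *Dnmt1* KO libraries. Its log2 fold change was 0.25 with limma's adjusted p of 0.0225, and with each library left out in turn its adjusted p was 0.0670 to 0.0860 (0.103 with DESeq2). The most abundant members of the list, *Cyfip2* and *Abi2*, had log2 fold changes of 0.15 (limma's adjusted p = 0.0733) and 0.08 (limma's adjusted p = 0.383). Of 15 tested formins and linear nucleators, 0 were called, beside 17.3% of all genes tested, and the median log2 fold change was 0.11. The most abundant of them, *Daam1* and *Fmnl2*, had log2 fold changes of 0.12 (limma's adjusted p = 0.252) and 0.16 (limma's adjusted p = 0.130).

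Among proteins that cap or sever filaments or supply actin monomers, 1 of 23 tested genes rose and 5 fell, with a median log2 fold change of -0.05. The shares over all genes tested were 8.3% called higher and 8.99% called lower. *Add3*, an adducin that caps filaments in the membrane skeleton, fell from 255 and 233 normalized counts to 112 and 121, a log2 fold change of -1.05 with limma's adjusted p of 9.00e-05. *Pfn1*, profilin, which feeds actin monomers to growing ends, fell from 733 and 736 to 492 and 493, a log2 fold change of -0.58 with limma's adjusted p of 0.000140 (-0.33 with the length and GC correction, still called). *Ssh2*, a phosphatase that activates cofilin, rose from 1257 and 1242 to 1578 and 1487, a log2 fold change of 0.29 with limma's adjusted p of 0.00426. Both thymosins, which hold actin monomers, were also called lower, *Tmsb4x* at a log2 fold change of -0.21 and *Tmsb10*, named after its values were seen like *Cap2*, at -0.16. The length and GC correction moved these to -0.071 (limma's adjusted p = 0.411) and 0.074 (limma's adjusted p = 0.304), so that the sign of *Tmsb10* turned. *Cap2* had a log2 fold change of -0.83 and limma's adjusted p of 0.0350 (0.220 with DESeq2). With 1 library left out, limma's adjusted p was 0.124 for *Tmsb4x* (without control replicate 1), 0.176 and 0.255 for *Tmsb10* (without replicate 2 of the control or of the *Dnmt1* KO) and 0.102, 0.202 and 0.110 for *Cap2* (without control replicate 1, control replicate 2 or *Dnmt1* KO replicate 1).

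The spectrin and ankyrin membrane skeleton rests on short actin filaments capped by tropomodulins and adducins. Of its 13 tested genes, 5 were called higher and 2 lower, beside 8.3% and 8.99% of all genes tested. The median log2 fold change of the list was 0.14. *Epb41l1*, the neuronal relative of protein 4.1, rose from 1528 and 1757 normalized counts to 2269 and 2282, a log2 fold change of 0.47 with limma's adjusted p of 0.000147. *Sptb* rose from 116 and 169 to 201 and 214, a log2 fold change of 0.56 with limma's adjusted p of 0.0307, and without control replicate 1 it was at 0.29 with an adjusted p of 0.273. DESeq2 did not call it (adjusted p = 0.145). *Epb41l2* fell from 259 and 247 to 143 and 130.0, a log2 fold change of -0.89 with limma's adjusted p of 0.000267. Calls within the list went in both directions, also among the protein 4.1 genes. Among the others called were *Sptan1* (log2 fold change 0.21), *Sptbn1* (0.14) and *Epb41* (-0.35), named after their values were seen. For *Sptbn1*, limma's adjusted p was 0.0588 to 0.201 over the 4 omissions of a library. Over all actin filament lists and without the 7 genes, 94 genes were tested, of which 8.51% were called higher and 14.9% lower, beside 8.3% and 8.99% of all genes tested. Their median log2 fold change was -0.033.

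*Neb* has close neighbours on chromosome 2. Within 500 kb, the table held 19 genes, of which 5 were tested and 2 were called, both higher, beside 8.3% of all genes tested that were called higher. With 5 genes, such a count is a description only. *Arl5a*, a small GTPase of the Golgi apparatus, lies 19.5 kb beyond the 5′ end of *Neb* on the same strand. It was at 1236 and 1217 normalized counts in control libraries and at 1709 and 1580 in *Dnmt1* KO libraries, which gave a log2 fold change of 0.42 and an adjusted p of 0.000278 in limma. *Cacnb4*, a subunit of neuronal calcium channels, lies 49.9 kb away on the same side and strand. It was at 221 and 212 normalized counts in control libraries and at 351 and 300.5 in *Dnmt1* KO libraries. The log2 fold change was 0.58, with an adjusted p of 0.00309 in limma. With the length and GC correction, *Arl5a* was at 0.29 and *Cacnb4* at 0.41, both smaller but still called. In both genes the genotypes did not overlap, and both were called with every library left out in turn. *Rif1*, a regulator of replication timing on the opposite strand, lies 9.6 kb beyond the 3′ end of *Neb*. It had 538 and 524 normalized counts in control libraries and 554 and 517 in *Dnmt1* KO libraries, which gave a log2 fold change of 0.012 and an adjusted p of 0.947 in limma. *Stam2* and *Fmnl2*, at larger distance on the 5′ side, were not called, with log2 fold changes of 0.10 and 0.16. The tested gene nearest to *Neb* thus did not pass the test. The 3 genes that overlap *Neb* in the annotation, *Gm56481*, *Gm13521* and *Gm13522*, were listed at 0 in every library.

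Around the 6 other genes, 55 neighbours were tested, each counted once, of which 8 were called higher (14.55%, beside 8.3% of all genes tested) and 4 lower, with a median log2 fold change of 0.0005. Of the 4 tested neighbours of *Nebl*, 0 were called, and the nearest, *A930004D18Rik*, was 288 kb away, with normalized counts that gave a log2 fold change of -0.83 and an adjusted p of 0.0848 in limma. Of the 7 tested around *Ttn*, *Sestd1* was called at a log2 fold change of 0.28, and limma's adjusted p was 0.0653 without *Dnmt1* KO replicate 1. The tested genes on either side of *Ttn*, *Plekha3* and *Ccdc141*, were not called (log2 fold changes 0.12 and -0.69). *Tstd2*, which overlaps *Tmod1* on the opposite strand, was at 221 and 207 normalized counts in control libraries and at 210.1 and 216 in *Dnmt1* KO libraries, beside the 1 or 2 reads of *Tmod1*. Of the other 11 tested genes around *Tmod1*, *Anp32b* fell with a log2 fold change of -0.43 (-0.29 with the length and GC correction, still called), while the nearest, *Tdrd7* and *Ncbp1*, were not called (0.23 and 0.037). The neighbourhood of *Lasp1* was the densest, with 22 tested genes. *Srcin1* (0.33), *Pip4k2b* (0.34), *Fbxl20* (0.38), *Socs7* (0.28) and *Gm11611* (1.46) were called higher, and *Rpl19* (-0.31), *Neurod2* (-0.78) and *Rpl23* (-0.24) lower. Over all genes tested, 8.3% were called higher and 8.99% lower. Limma without control replicate 1 or *Dnmt1* KO replicate 2 gave an adjusted p of 0.145 and 0.234 for *Fbxl20* and 0.283 and 0.253 for *Rpl23* (log2 fold changes -0.15 and -0.16). With the length and GC correction, *Rpl23* was at -0.065 (limma's adjusted p = 0.620). DESeq2 called neither *Rpl23* (adjusted p = 0.0995) nor *Fbxl20* (0.121) nor *Socs7* (0.116), and it gave no adjusted p for *Gm11611*. Without control replicate 2 or *Dnmt1* KO replicate 1, it was 0.230 and 0.170 for *Socs7* (log2 fold change 0.18 without the former), and it was 0.0787 to 0.165 for *Gm11611* over all 4 omissions. The nearest genes to *Lasp1* were *B230217C12Rik*, at 2.0 kb and with a log2 fold change of 0.13, and *Rpl23*, at 16.5 kb. *Tmod2* and *Tmod3* share *Myo5a*, a neuronal myosin motor, which was called at a log2 fold change of 0.20, and *Atosa* near *Tmod3* was called at 0.36. Limma's adjusted p was 0.186 for both without control replicate 2, and 0.0594 for *Myo5a* and 0.173 for *Atosa* without *Dnmt1* KO replicate 1. The log2 fold change of *Myo5a* was 0.13 without control replicate 2, its adjusted p was 0.0644 with the length and GC correction, and DESeq2 did not call *Atosa* (adjusted p = 0.102). *Leo1*, *Lysmd2* and *Gm48822*, the nearest tested genes to *Tmod3* and *Tmod2*, were not called (log2 fold changes 0.017, 0.39 and 0.23).

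The genes whose pattern over the 4 libraries was most like that of *Neb* were found by the Euclidean distance between log2 values, with each gene's mean taken off, among genes with a mean of at least 100 normalized counts. The nearest was *Fam135b* at a distance of 0.294, with 237 and 203 normalized counts in control libraries and 515 and 517 in *Dnmt1* KO libraries. *Xist*, the RNA of the inactive X chromosome, followed at a distance of 0.297, with 1402 and 1360 in control libraries and 3428 and 3311 in *Dnmt1* KO libraries. *Neto1* (distance 0.431), *Maf* (0.443) and *Nxph2* (0.460) completed the 5. Their log2 fold changes were 1.24, 1.12 and 1.07, beside 1.23 for *Fam135b* and 1.29 for *Xist*. With 4 libraries in 2 groups, this distance is set mainly by the size of the rise. Since *Xist* depends on the share of female embryos in a pool, 4 Y-linked genes (*Ddx3y*, *Eif2s3y*, *Kdm5d* and *Uty*) were summed, a choice made after values were seen. Their sum was 676 and 548 normalized counts in control libraries and 587 and 493 in *Dnmt1* KO libraries, and 0 of the 4 were called, with log2 fold changes from -0.31 to -0.095. The parts of the sex of the pooled embryos and of the *Dnmt1* deletion in the value of *Xist* were not tested. The part of sex in the value of *Neb* was not tested either.

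Transcript length was examined because *Neb* and *Ttn* have some of the longest transcripts in the table. Among 453 tested coding genes with a transcript of at least 10 kb, 150 were called higher (33.1%) and 38 lower. The shares over all genes tested were 8.3% called higher and 8.99% called lower. The median log2 fold change of the 453 was 0.16, beside -0.017 over all 12278 tested coding genes. Long transcripts thus lay toward higher values in *Dnmt1* KO cells. *Ttn* lay at percentile 10.8 and *Tmod2* at percentile 27.6 of the 453. *Neb* had the largest value among them, which restates how it was chosen. With the length and GC trends taken out of each library, the log2 fold change of *Neb* was 1.39, and the part of transcript length in its value was not tested.

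**Figure D5:**
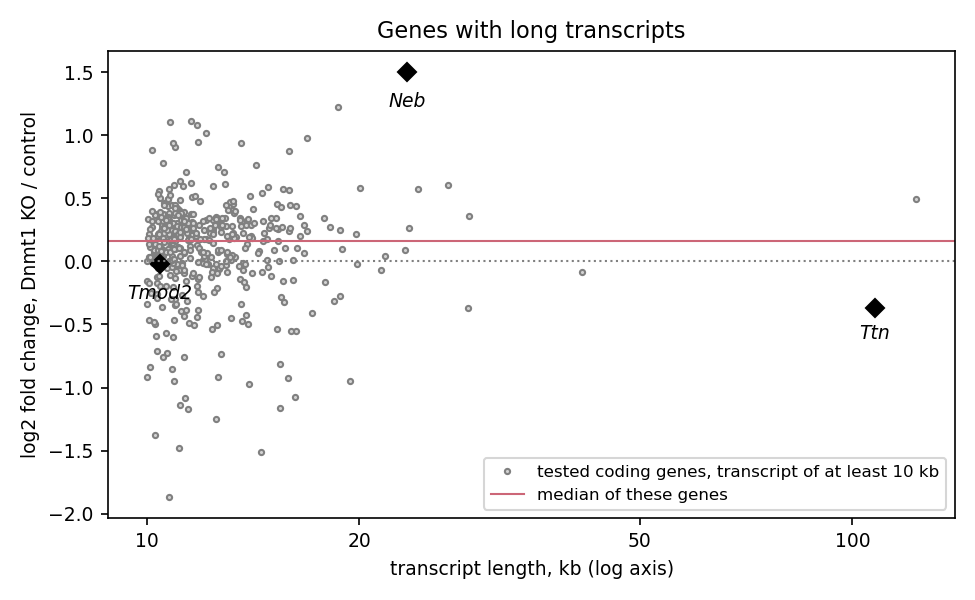
Log2 fold change (*Dnmt1* KO over control) against transcript length in kb (log axis) for the 453 tested coding genes with a transcript of at least 10 kb, with *Neb*, *Ttn* and *Tmod2* as diamonds and the median of 0.16 as a red line. *Neb* is the highest point at 1.50, while *Ttn* at -0.37 and *Tmod2* at -0.019 lie below the median.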

How the data were processed

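RNA sequencing of FAC-sorted E14.5 basal telencephalon cells was analysed for 2 control and 2 *Dnmt1* KO libraries, grouped and numbered as in the sample labels. Upstream, the authors used Trim Galore for trimming, STAR for alignment to GRCm39, Salmon for quantification and DESeq2 for normalization. The deposited signal is a count divided by 1 size factor per library. With this factor taken out, 100% of the 89965 values above 0 were whole numbers to within 0.0001. These counts per gene are called recovered reads. Whether they are rounded estimates of Salmon is not given in the sources used here. The kit was stranded, but whether counting used strand is not given in the sources used here, and reads of overlapping or antisense genes may not be told apart.

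Normalized counts were tested as log2(value + 1) with limma 3.58.1 (trended prior variance, Benjamini-Hochberg adjustment) for the 14323 genes with a mean of at least 10. Fold changes are on this scale, which understates those of low genes. An exact permutation test of 2 against 2 libraries cannot reach 0.05. Alternatives were edgeR 4.0.16 (quasi-likelihood), DESeq2 1.42.0 (Wald) and limma-voom on recovered reads, which called 2528, 1317 and 2496 genes, and other pseudocounts, filters, scalings and omissions. When a library was left out, limma assumed that the lone library varies like the others. The script was tested on simulated data.

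The members and lists were chosen with earlier results of these data known. Transcripts (longest coding sequence) were taken from GENCODE M39, which matched 14285 of the tested genes by identifier. Named were all 7 genes and the rest of their families, up to 4 called genes per list with the largest change and a mean of at least 50 (or the 2 most abundant where fewer than 2 were called), the nearest tested neighbours and those called within 500 kb, and the 5 genes most like *Neb*. Protein sequences were not analysed here. A gene that the rule would name is not reported here.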

Additional observations from a re-analysis of the deposited data

How the results depend on the processing

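Of the 5 tested relatives of *Neb*, 0 were called in the alternatives that kept all libraries, although *Ttn* was not tested at a mean of at least 50. Limma without the variance trend called 0 of all genes tested, so that its 0 for the relatives was fixed beforehand. As with the main fit, such a count over 5 genes is no result about the group. *Neb* ranged from 1.38 to 1.63 on the log2 scale with 1 library left out and from 1.39 to 1.51 otherwise. With 1 library left out, the log2 fold change ranged from 0.23 to 0.48 for *Nebl*, -0.022 to 0.094 for *Lasp1*, -0.74 to 0.011 for *Ttn*, -0.099 to 0.061 for *Tmod2* and -0.24 to -0.021 for *Tmod3*. Signs turned for *Lasp1* (-0.016 with quantile normalization, -0.022 without control replicate 1), *Ttn* (0.011 without control replicate 1) and *Tmod2* (0.029 without control replicate 1, 0.061 without *Dnmt1* KO replicate 1), all within intervals that include 0. Over all genes, 787 to 959 were higher and 738 to 1246 lower with 1 library left out, and among the lists 13 in each case were higher and 21 to 28 lower, beside 16 and 28 with all libraries. DESeq2 called 634 higher and 683 lower genes. If the variance trend was left out of limma, 0 were called in each direction, also 0 in the lists, with a smallest adjusted p of 0.0592. The cause was not tested. With the replicate block, 2957 genes were called instead of 2476 and *Neb* was at 1.50, and no call among the relatives changed. Over all genes tested, libraries of the same number did not deviate together (r = -0.085). With 2 libraries per genotype this is a single value, and a batch shared by some of the genes was not tested. Of the 58 called genes in the lists and neighbourhoods, 13 were not called by DESeq2, 9 not with the length and GC trends removed, 8 not with quantile normalization, and 8 to 14 not with 1 library left out. The 13 for DESeq2 leave out *Gm11611*, for which DESeq2 gave no adjusted p and thus no call. Low counts limit *Ttn*, *Nebl* and *Tmod1* most.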
